A study of Mus musculus with 8 samples.

Results

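The malate-aspartate shuttle and the glycerol phosphate shuttle were followed through brown adipose tissue (BAT) of mice kept at 22 °C, exposed to 4 °C, or fed a control diet (CD) or a high-fat diet (HFD). The 9 genes were chosen by name out of 49452 in the table, and all 9 were found. They are Got1, Got2, Mdh1, Mdh2, Slc25a11, Slc25a12 and Slc25a13 of the malate-aspartate shuttle, and Gpd1 and Gpd2 of the glycerol phosphate shuttle. Got1 was picked for its rise in the cold, so its cold values are given as a description with no test. All 8 libraries came from male C57BL/6 mice with no transgene. In 4 groups of 2, they were mice constantly at 22 °C (replicates 4 and 7), mice placed at 4 °C for 24 h (replicates 2 and 11), mice on CD (replicates 6 and 8) and mice on HFD (replicates 2 and 6). Mice of the temperature experiment were 10 to 12 weeks old, and those at 4 °C spent 20 h in the cold before a fast of 4 h. Whether the 22 °C mice were fasted is not clear from the methods. Mice of the diet experiment were 32 weeks old after 28 weeks on CD with 11% or HFD with 54% of energy from fat. The labels call the control food normal chow. Nothing states whether a library is 1 animal, so p-values measure only the spread between these libraries.

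NADH made in the cytosol cannot cross the inner mitochondrial membrane, and both shuttles carry its electrons into the respiratory chain. In the malate-aspartate shuttle, cytosolic malate dehydrogenase reduces oxaloacetate to malate, a carrier exchanges malate for 2-oxoglutarate, mitochondrial malate dehydrogenase remakes NADH, and aspartate leaves in exchange for glutamate after transamination. In the glycerol phosphate shuttle, a cytosolic dehydrogenase reduces dihydroxyacetone phosphate to glycerol 3-phosphate, and a dehydrogenase on the outer face of the inner membrane passes the electrons to ubiquinone. BAT is long known for its very high glycerol phosphate dehydrogenase activity, and glycerol 3-phosphate is also the backbone of its triglycerides.

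The promoters of Got1 and Slc25a12 are shown because these genes had the 2 largest cold to warm ratios of the 9. Sequences are the 250 bases before the RefSeq start site on GRCm38.p6, 5′ to 3′ on the strand of the gene. Capitals mark CCAAT (the CCAAT box) on either strand and AGGTCA, a half-site of nuclear receptors, on either strand, and no 2 matches overlap. The Got1 window is chr19:43524606-43524855 on the minus strand, and the Slc25a12 window is chr2:71367756-71368005 on the minus strand.
Got1: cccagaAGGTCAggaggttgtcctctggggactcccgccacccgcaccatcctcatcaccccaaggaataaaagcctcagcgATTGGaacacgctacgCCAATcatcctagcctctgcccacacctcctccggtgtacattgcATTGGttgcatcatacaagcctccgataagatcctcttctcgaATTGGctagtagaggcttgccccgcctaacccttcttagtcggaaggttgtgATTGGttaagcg
Slc25a12: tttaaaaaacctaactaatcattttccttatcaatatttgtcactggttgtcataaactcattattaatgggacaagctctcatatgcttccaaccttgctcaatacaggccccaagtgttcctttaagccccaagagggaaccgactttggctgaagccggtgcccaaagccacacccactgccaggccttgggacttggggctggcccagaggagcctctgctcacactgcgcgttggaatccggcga
The Got1 window held CCAAT 5 times, 4 of them on the opposite strand, where they read ATTGG, at 12, 64, 107, 152 and 168 bases before the start. Of 32851 promoter windows of the same length, 33.8% held CCAAT at least once and 0.213% at least 5 times. The Slc25a12 window held neither of the 2 motifs. Among the members with a window in the table (8 of 9, Gpd1 having none), Mdh1 held CCAAT 2 times, Slc25a11 and Slc25a13 held it once each, and Got2, Mdh2 and both Gpd2 windows did not hold it. AGGTCA was found once in Got1 and once in Got2, and in 14.0% of all windows. These matches describe letters and are not binding sites.

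Values are FPKM, which scale the fragments of a gene by its transcript length and by the fragments mapped in the library, so that levels of different genes can be set side by side. By the steps between low values, 1 fragment on a transcript of 2000 bases was worth 0.00440 to 0.00603 FPKM. The brown adipocyte markers summed to 2744 to 10094 FPKM, with Ucp1 at 699 to 6462 FPKM, and 6 of the 8 were higher and 1 lower in both cold than in both 22 °C libraries. Both libraries at 22 °C and CD replicate 6 list every X gene at 0. In each group 1 library held the satellite-repeat gene Gm10800 above 100 FPKM (replicate 4 at 22 °C, 11 at 4 °C, 8 on CD and 2 on HFD), and these are called satellite-high here. The identifiers in the labels of CD replicate 8 and both HFD libraries begin differently from those of the other 5 libraries, and what this marks is not stated. Skeletal muscle markers, measured through the 11 of 12 listed genes that are in the table, were present in all libraries and moved with both comparisons. Their summed level was 109 to 531 FPKM at 22 °C, 1916 to 4518 at 4 °C, 573 to 1465 on CD and 16.3 to 177 on HFD, with 11 of 11 higher in both cold libraries and 10 of 11 lower in both HFD libraries. Beside these counts of brown adipocyte and muscle markers, 37.9% of all genes were higher and 20.6% lower in both cold libraries. In both HFD libraries 5.80% of all genes were lower. In bulk tissue, fewer cells of a type and less RNA per cell cannot be told apart.

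The dehydrogenases dominated both shuttles. Gpd1, the cytosolic NAD-linked glycerol 3-phosphate dehydrogenase, was the highest of the 9 genes in every group, with group means of 649 to 2142 FPKM. Mdh1, the cytosolic malate dehydrogenase, came next in every group (233 to 590 FPKM), and Slc25a13, which encodes citrin, was last (0.105 to 0.459 FPKM). Gpd1 and Gpd2 together held 60.5% to 76.1% of the FPKM summed over the 9 genes, and Mdh1 held 52.8% to 72.6% of the sum over the 7 malate-aspartate genes. The order of neighbours was not separated by the libraries for Gpd2 and Mdh2 at 22 °C, for Got2 and Slc25a12 at 4 °C, or for Mdh2 and Gpd2 and for Got1 and Got2 on CD. Got2 stood above Got1 at 22 °C, whereas Got1 stood above Got2 at 4 °C and on HFD.

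**Figure D1:**
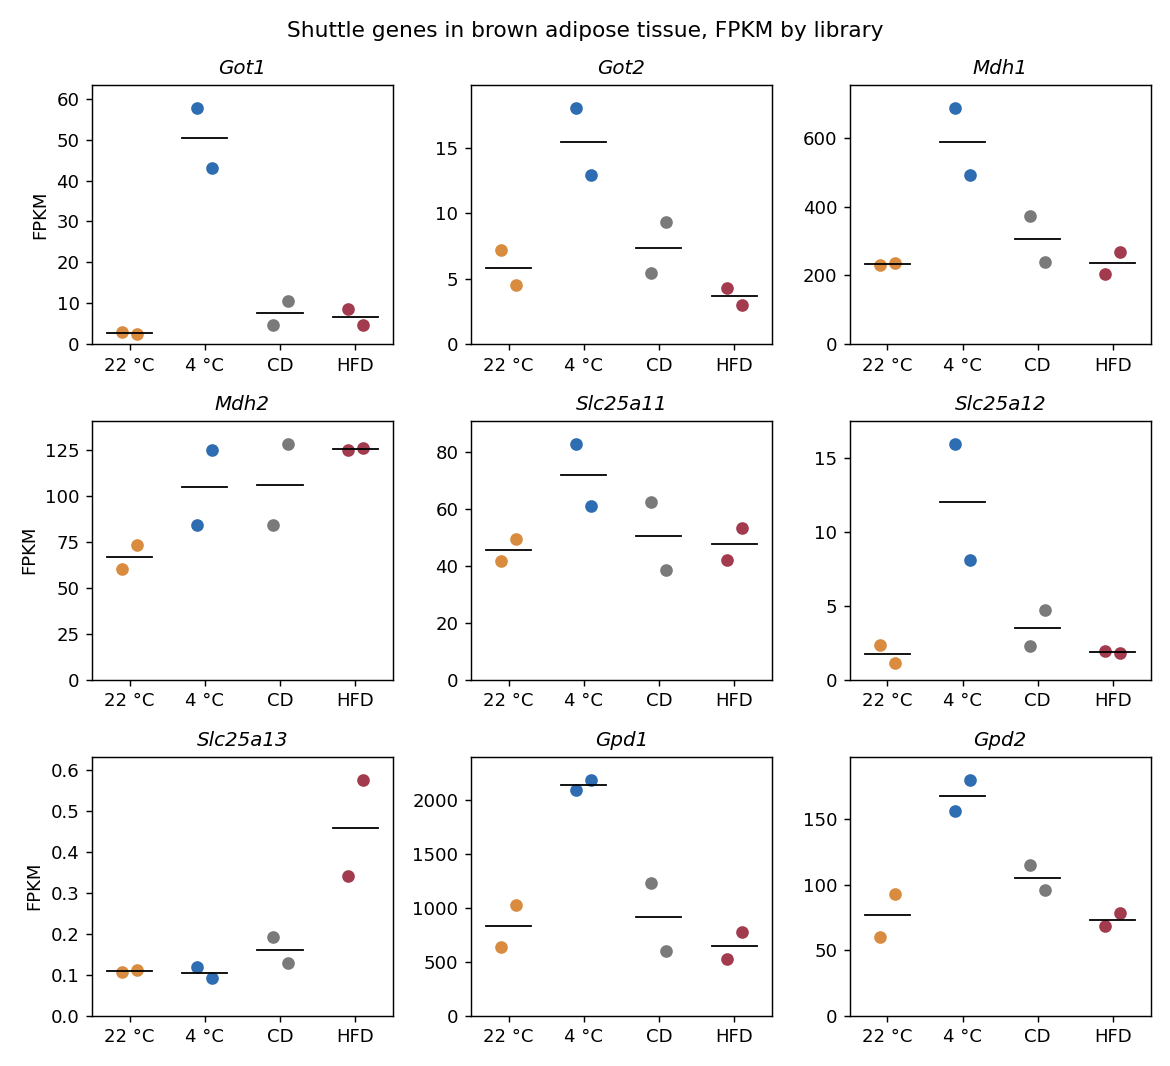
FPKM (linear axis from 0) of each of the 9 shuttle genes in each library, by group; points are libraries, 2 per group, and bars are group means. Both 4 °C libraries lie above both 22 °C libraries in every panel but that of Slc25a13, which is below 0.6 FPKM throughout.

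The temperature comparison asked how BAT transcripts change after 24 h at 4 °C. Both cold libraries were above both 22 °C libraries for 8 of the 9 genes, Got1 among them by its choice, and for 7 of the other 8. Of 17470 autosomal genes tested, 37.9% were higher and 20.6% lower in this way. By limma (adjusted p under 0.05 and at least 2-fold), 0 of the 8 genes tested were past threshold, and 1.22% of all genes were past it as higher and 0.223% as lower. At an unadjusted p under 0.05 there were 5 of 8 (Got2, Mdh1, Slc25a12, Gpd1 and Gpd2), against 24.5% of all genes. The median log2 fold change of the 8 was 1.22, of all genes 0.07, and of mRNA genes averaging 1 FPKM or more 0.22. With 2 libraries against 2, an exact two-sided permutation test cannot go below p = 0.333.

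**Figure D2:**
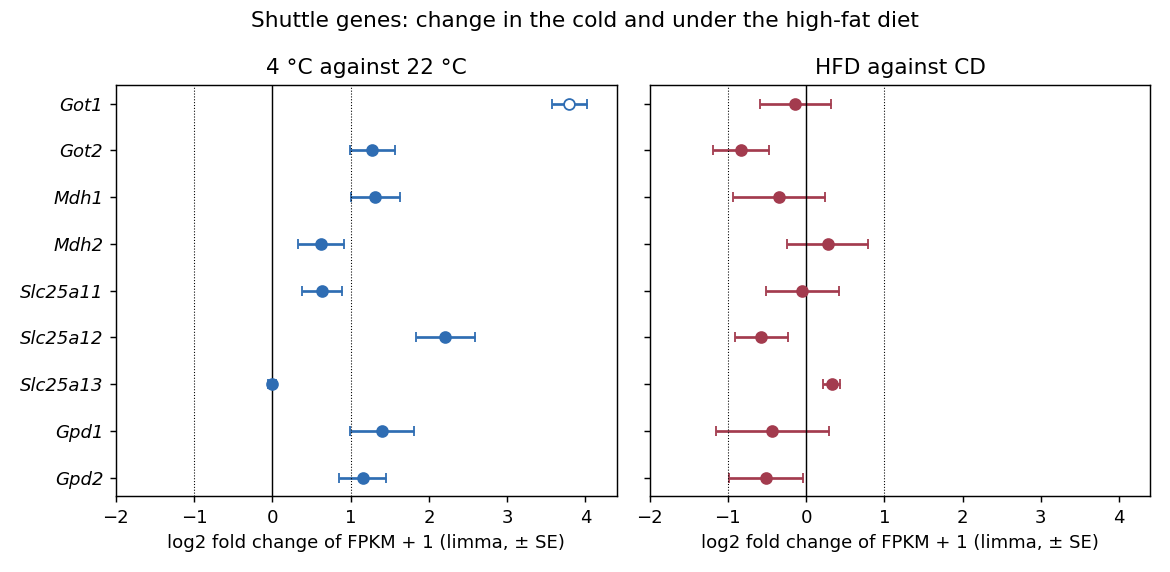
Log2 fold change of FPKM + 1 for the 9 genes at 4 °C against 22 °C (left) and on HFD against CD (right), with the moderated SE of limma as bars, 2 libraries per group, and dotted lines at a 2-fold change; the open point is Got1 in the cold, which chose the list. In the cold, Slc25a12 at 2.21 is the highest of the genes tested and Slc25a13 lies at 0, and on HFD no gene reaches a 2-fold change on this scale.

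The aminotransferases interconvert aspartate and 2-oxoglutarate with oxaloacetate and glutamate, Got1 in the cytosol and Got2 in mitochondria. Got1 stood at 2.84 and 2.50 FPKM at 22 °C and at 57.6 and 43.2 FPKM at 4 °C. The groups lay far apart, and the ratio of their means was 18.9 (log2 fold change 3.79, SE 0.22). Got2 stood at 7.19 and 4.49 FPKM at 22 °C and at 18.0 and 12.9 FPKM at 4 °C. The groups of Got2 did not overlap, with a log2 fold change of 1.28 (SE 0.28, limma adjusted p = 0.0789). Thus Got2 did not pass the threshold. Got1 lies on chromosome 19 (43499752 to 43524605, minus strand) with no other gene overlapping it, while exons of Got2 on chromosome 8 overlap those of Gm45760 on the opposite strand. Whether the authors' FPKM used the strand of their directional libraries is not stated.

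The malate dehydrogenases showed a larger difference for the cytosolic than for the mitochondrial enzyme, though this was not tested. Mdh1 stood at 230.6 and 235.3 FPKM at 22 °C and at 687 and 493 FPKM at 4 °C. Its 2 libraries at 22 °C were nearly equal and both cold libraries were over 2-fold higher, yet Mdh1 did not pass the threshold (log2 fold change 1.32, SE 0.31, limma adjusted p = 0.0856). It passed with library type (satellite-high or not) as a covariate (limma adjusted p = 0.0461), with that covariate over all 8 libraries (0.0488) and with robust variances (0.0379). Over all genes those fits called 859, 869 and 656, against 252 in the main fit. Mdh2 stood at 60.4 and 73.1 FPKM at 22 °C and at 84.4 and 125 FPKM at 4 °C. The groups did not overlap, but the spread at 4 °C exceeded the gap between groups, with a log2 fold change of 0.62 (SE 0.29, limma adjusted p = 0.256). Exons of Mdh1 overlap those of Wdpcp on the opposite strand.

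The 3 carriers differed among themselves. Slc25a11, the malate and 2-oxoglutarate exchanger, stood at 41.8 and 49.5 FPKM at 22 °C and at 82.6 and 61.1 FPKM at 4 °C (log2 fold change 0.63, SE 0.26, limma adjusted p = 0.210), and its exons overlap those of Rnf167 on the opposite strand. Slc25a12, which encodes aralar, an aspartate-glutamate carrier, stood at 2.36 and 1.15 FPKM at 22 °C and at 15.9 and 8.10 FPKM at 4 °C. Both cold libraries were more than 3-fold above the higher 22 °C library. The log2 fold change of Slc25a12 was 2.21 (SE 0.38), and its limma adjusted p of 0.0548 missed the threshold. Over the alternative fits that left out no library, that adjusted p ran from 0.00124 to 0.326. Those in which Slc25a12 passed called 439 to 920 of all genes, against 252 in the main fit. Those in which it did not pass called 0 to 475. Slc25a13, the other aspartate-glutamate carrier, stood at 0.106 and 0.111 FPKM at 22 °C and at 0.119 and 0.0916 FPKM at 4 °C. The groups of Slc25a13 overlapped (log2 fold change -0.00, SE 0.05, limma adjusted p = 0.969), at levels that correspond to about 27.96 to 38.9 fragments per library on its longest transcript.

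Both genes of the glycerol phosphate pair had higher values in both cold libraries, and neither passed the threshold in the main fit. Gpd1 stood at 638 and 1028 FPKM at 22 °C and at 2098 and 2186 FPKM at 4 °C. Its cold libraries were close together and more than 2-fold above the higher 22 °C library, but the 22 °C libraries differed among themselves and Gpd1 did not pass the threshold (log2 fold change 1.40, SE 0.41, limma adjusted p = 0.122). Gpd2, the mitochondrial FAD-linked glycerol 3-phosphate dehydrogenase, stood at 60.1 and 93.2 FPKM at 22 °C and at 156 and 180 FPKM at 4 °C (log2 fold change 1.15, SE 0.30, limma adjusted p = 0.103). Gpd2 passed with library type as a covariate over all 8 libraries (limma adjusted p = 0.0431), and Gpd1 with robust variances (0.0439). Over all genes those fits called 869 and 656, against 252. With library type as a covariate in the temperature libraries alone, neither Gpd2 (0.0649) nor Gpd1 (0.0713) passed. Exons of both overlap those of a gene model on the opposite strand, Gm16537 for Gpd1 and A930012O16Rik for Gpd2.

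The scale of the libraries bears on these counts. With each library rescaled to the same autosomal sum, the median gene moved from 0.07 to -0.11 on the log2 scale in the cold. Of the 8 genes other than Got1, 5 were then higher in both cold libraries (Got2, Mdh1, Slc25a12, Gpd1 and Gpd2), against 12.9% of all genes. Slc25a13 was lower in both, as were 27.9% of all genes. Over all 5 scalings tried, 5 or 6 of the 8 were higher, and 12.9% to 27.7% of all genes were. Without 22 °C replicate 4, Got2 and Slc25a12 passed the threshold in the cold, and without 22 °C replicate 7, Slc25a12 and Gpd1 did. Over all genes those fits called 512 and 766, against 252 with all 4 libraries. Within satellite-high and within satellite-low libraries, with 1 library a group and no test, the cold log2 differences were 1.44 and 2.98 for Slc25a12, 0.76 and 1.79 for Got2, 1.04 and 0.20 for Mdh2, 1.776 and 1.028 for Gpd1, and 1.57 and 0.74 for Gpd2. With both 22 °C libraries kept and either cold library left out, none of the 8 did, and those fits called 1 gene in all without replicate 2 and 450 without replicate 11.

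The diet comparison asked how BAT transcripts differ after long feeding of HFD. Slc25a13 was higher in both HFD libraries and Got2, Slc25a12 and Gpd2 were lower in both, while Got1, Mdh1, Mdh2, Slc25a11 and Gpd1 overlapped. Of 17535 autosomal genes tested, 39.9% were higher and 5.80% lower in this way. By limma, 0 of the 9 genes were past threshold, as were 0.0513% of all genes as higher and 0.0171% as lower. At an unadjusted p under 0.05 there was 1 of 9 (Slc25a13), against 14.4% of all genes. The median log2 fold change was -0.35 for the 9 genes, 0.18 for all genes and 0.30 for mRNA genes averaging 1 FPKM or more.

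Got1 stood at 4.58 and 10.4 FPKM on CD and at 8.51 and 4.53 FPKM on HFD, so that the groups covered nearly the same range (log2 fold change -0.14, SE 0.46, limma adjusted p = 0.916). Got2 stood at 5.47 and 9.31 FPKM on CD and at 4.27 and 3.01 FPKM on HFD. Its groups did not overlap, and the difference did not pass the threshold (log2 fold change -0.83, SE 0.36, limma adjusted p = 0.354). Slc25a12 stood at 2.26 and 4.71 FPKM on CD and at 1.97 and 1.82 FPKM on HFD (log2 fold change -0.57, SE 0.34, limma adjusted p = 0.493). The CD library with the higher value was replicate 8 for Got1, Got2 and Slc25a12 alike, and replicate 8 was also the CD library with the higher muscle markers. It was the satellite-high CD library too, and the one whose label identifier begins like those of the HFD libraries.

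Slc25a13 was the only one of the 9 genes that was higher in both HFD libraries as deposited. It stood at 0.192 and 0.128 FPKM on CD and at 0.342 and 0.576 FPKM on HFD, and the ratio of the group means was 2.88. On the log2(FPKM + 1) scale, which understates changes of low genes, its log2 fold change was 0.33 (SE 0.11, limma adjusted p = 0.246), and with a pseudocount of 0.1 it was 1.09. With each library centred on its median gene it was 0.0088 (limma adjusted p = 0.986). The 6 macrophage markers were all higher in both HFD libraries, summing to 38.4 to 108 FPKM on CD and 189 to 242 FPKM on HFD, and all 6 were above 0. Of the 4 white adipocyte markers, 3 were higher in both HFD libraries, while Hoxc9 was at most 0.0621 FPKM in any library. Of the 3 erythroid markers in the table, Hba-a1 was higher in both HFD libraries and Hba-a2 overlapped (97.5 and 45.6 FPKM on CD, 92.2 and 177 on HFD). The other, Alas2, is X-linked and cannot be compared, because CD replicate 6 lists every X gene at 0. Sums of the 3, with that 0 included, were 99.6 to 156 FPKM on CD and 194 to 393 FPKM on HFD. Of 4 endothelial markers, 2 were higher and none lower. Beside these marker counts, 39.9% of all genes were higher and 5.80% lower in both HFD libraries. The part of these cells in the Slc25a13 difference was not tested.

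Gpd1 stood at 1228 and 599.8 FPKM on CD and at 523 and 775 FPKM on HFD, with overlapping groups (log2 fold change -0.43, SE 0.72, limma adjusted p = 0.828). Gpd2 stood at 115 and 95.8 FPKM on CD and at 68.3 and 78.5 FPKM on HFD (log2 fold change -0.52, SE 0.48, limma adjusted p = 0.669). Both HFD libraries were below both CD libraries for Gpd2. Among the 3 diet libraries whose label identifiers begin alike (without CD replicate 6), log2 fold changes were -1.16 for Got2, -0.98 for Slc25a12, 0.37 for Slc25a13 and -0.38 for Gpd2, with limma adjusted p-values of 0.121, 0.164, 0.0871 and 0.794. Mdh1 covered 238 to 373 FPKM on CD and 204 to 269 on HFD, Mdh2 84.1 to 128 and 125 to 126, and Slc25a11 38.5 to 62.3 and 42.1 to 53.3, with limma adjusted p-values of 0.832, 0.848 and 0.974. Counts that did not overlap depended on the scale here: with each library centred on its median gene, 6 of the 9 genes were lower in both HFD libraries (Got2, Mdh1, Slc25a11, Slc25a12, Gpd1 and Gpd2), against 34.5% of all genes, and none was higher. With each library rescaled to the same autosomal sum, Got2 and Slc25a12 were no longer lower in both HFD libraries, and the 4 genes that were lower were Mdh1, Slc25a11, Gpd1 and Gpd2, against 10.9% of all genes. With the autosomal mRNA sum Slc25a12 overlapped too.

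A ratio of 2 genes in the same library does not change when each library is multiplied by 1 factor, though quantile normalization can change it. For Got1 over Got2 it was 0.395 and 0.557 in the 22 °C libraries, 3.19 and 3.34 in the cold, 0.837 and 1.12 on CD, and 1.99 and 1.51 on HFD. The cytosolic aminotransferase thus changed from the minor to the major transcript in the cold, a ratio that Got1's choice fixes in part, and the ratio was also higher in both HFD than in both CD libraries. Mdh1 over Mdh2 was 3.82 and 3.22 in the 22 °C libraries and 8.13 and 3.95 in the cold, and the gap between the groups was small beside the spread at 4 °C. On CD it was 4.44 and 1.86 and on HFD 1.63 and 2.13, which overlapped.

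Gpd1 over Gpd2 was 10.6 and 11.03 in the 22 °C libraries and 13.4 and 12.1 in the cold, without overlap, and this difference was not tested. On CD it was 10.6 and 6.26 and on HFD 7.66 and 9.87. Slc25a12 over Slc25a13 was 22.3 and 10.4 in the 22 °C libraries, 134 and 88.4 in the cold, 11.8 and 36.9 on CD, and 5.77 and 3.17 on HFD. The Slc25a12 transcript was thus above that of Slc25a13 in all 8 libraries. This ratio was higher in both cold than in both 22 °C libraries and lower in both HFD than in both CD libraries. Its divisor, Slc25a13, was at most 0.576 FPKM in any library. Gpd1 over Mdh1, the 2 cytosolic dehydrogenases that draw on NADH for the shuttles, was 2.52 to 4.43 over all 8 libraries and overlapped in both comparisons.

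**Figure D3:**
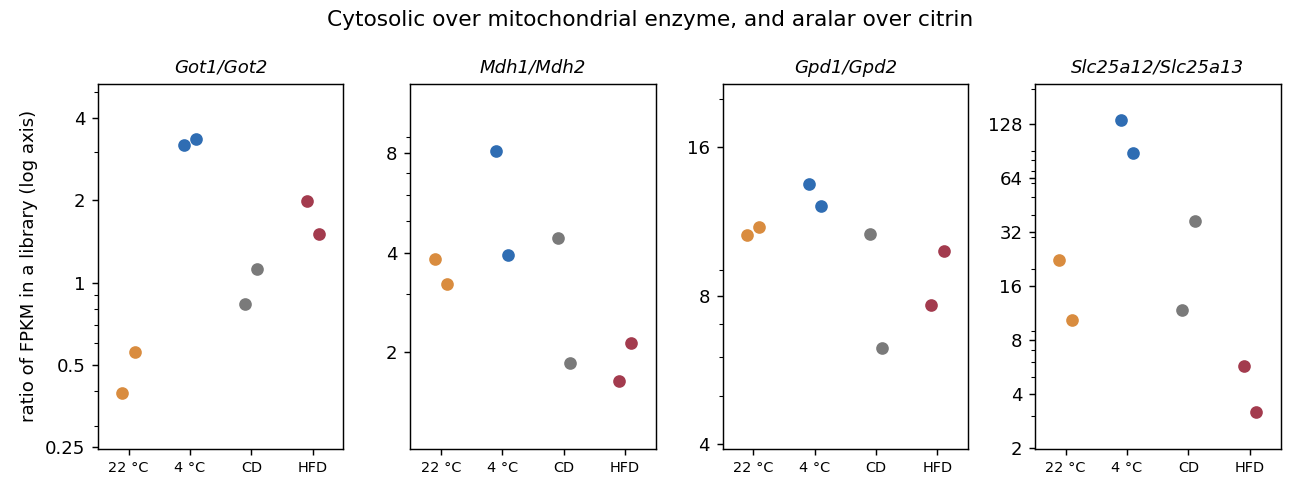
Ratios of FPKM within each library (log axes) for Got1 over Got2, Mdh1 over Mdh2, Gpd1 over Gpd2 and Slc25a12 over Slc25a13, by group, each point 1 library. Got1 over Got2 is below 1 in both 22 °C libraries and above 3 in both 4 °C libraries, while Gpd1 over Gpd2 stays between 6.26 and 13.4.

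Skeletal muscle markers were set beside the genes after their values had been seen. The muscle score, the mean log2(FPKM + 1) of the 11 markers, was 5.06 and 3.04 in the 22 °C libraries, 7.91 and 6.82 in the cold, 5.10 and 6.57 on CD, and 3.73 and 1.16 on HFD. Got1, Got2 and Slc25a12 were each higher in the library of higher score in 4 of 4 groups, as were 3.78% of genes averaging 1 FPKM or more. Gpd1 and Gpd2 were each lower in that library in 4 of 4 groups, as were 4.77% of such genes. Mdh1, Mdh2, Slc25a11 and Slc25a13 were higher in it in 1 of 4 groups. The library of higher score was the satellite-high one in every group but 4 °C.

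With the score as a covariate over all 8 libraries, cold log2 fold changes were 2.79 for Got1, 0.41 for Got2 (limma adjusted p = 0.596) and 1.34 for Slc25a12 (limma adjusted p = 0.326). For Gpd1 it was 2.45 (limma adjusted p = 0.321) and for Gpd2 1.72 (limma adjusted p = 0.264). Under this covariate the diet differences of Got1, Got2 and Slc25a12 changed sign, to 0.89, 0.06 and 0.31. Those of Gpd1 and Gpd2 grew from -0.43 and -0.52 to -1.50 and -1.09 (limma adjusted p = 0.649 and 0.554). Over all genes this fit called 0 in the cold and 1 on HFD at the threshold, and the part of muscle RNA in these values was not tested beyond it.

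**Figure D4:**
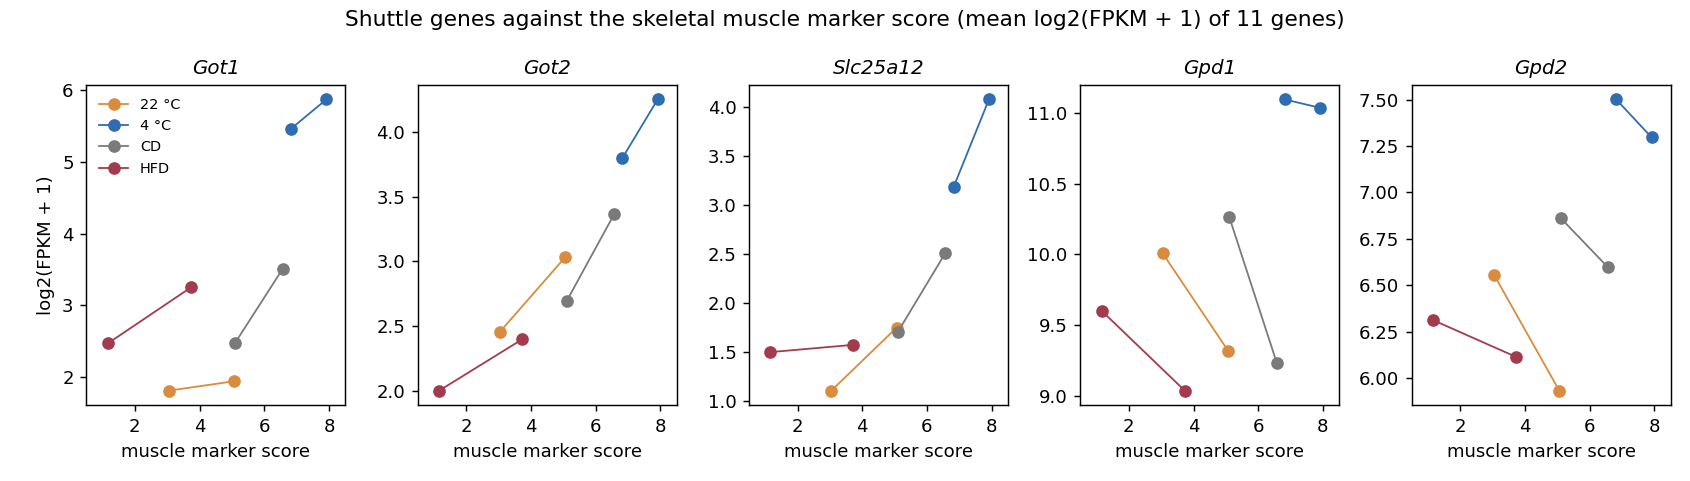
Log2(FPKM + 1) of Got1, Got2, Slc25a12, Gpd1 and Gpd2 against the skeletal muscle marker score, points being libraries and lines joining the 2 libraries of a group. Lines slope up in all 4 groups for Got1, Got2 and Slc25a12, and down in all 4 for Gpd1 and Gpd2.

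The genes closest to Got1 over the 8 libraries, by Pearson r of log2(FPKM + 1) among 10876 autosomal genes averaging 1 FPKM or more, were Fah (0.985), Fam160a1 (0.971), Ccdc47 (0.9705), Hspb7 (0.968) and Kcnj11 (0.965). Fah encodes the last enzyme of tyrosine breakdown and Kcnj11 a potassium channel subunit. These r values are descriptions over libraries that share 4 groups and a common scale. They include the 2 cold libraries by which Got1 was chosen and where it stood highest, so genes with high cold values rank high by that choice. Of the shuttle genes, Slc25a12 came closest to Got1 (r = 0.943, rank 34), followed by Got2 (0.834, rank 389), Mdh1 (0.808, rank 508) and Gpd2 (0.796, rank 555). Slc25a13 ran the other way (-0.284).

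Paralogs were low beside the members they resemble. Mdh1b was at most 0.119 FPKM and the pseudogene Got2-ps1 at most 0.175 FPKM in any library, Got1l1 ran from 0.186 to 1.29 FPKM, and Gpd1l, a cytosolic relative of Gpd1, from 3.73 to 7.56 FPKM. None passed the threshold in either comparison where tested. Gpd1l was lower in both cold libraries (6.13 and 3.77 FPKM) than at 22 °C (6.69 and 6.21 FPKM), opposite to Gpd1, with a limma adjusted p of 0.429.

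Genes that make or use the shuttles' substrates were counted in 4 lists. Of 39 tested in the cold, 1 passed the threshold, against 1.22% of all genes as higher, and 16 had an unadjusted p under 0.05, against 24.5% of all genes. The counts of genes higher or lower in both cold libraries stand beside 37.9% and 20.6% of all genes. The gene past threshold was Lpin1, a phosphatidate phosphatase of triglyceride synthesis, at 41.7 and 49.2 FPKM at 22 °C and 132 and 132 FPKM at 4 °C (log2 fold change 1.52, SE 0.23, limma adjusted p = 0.0495). This call was lost without replicate 4 at 22 °C or either cold library. It was also lost with quantile normalization and both autosomal rescalings, which called 489, 533 and 519 of all genes, against 252 in the main fit. With a pseudocount of 0.01 it was lost too, and 142 of all genes were called. No filter, no trend and the muscle score as a covariate each called 0 of all genes, so its loss there is not particular to Lpin1. The list that holds Lpin1, glycerol 3-phosphate use, had 3 of 6 tested genes higher and 1 lower in both cold libraries. Its most abundant genes were Agpat2, an acyltransferase, and Dgat2, which makes triglyceride, with mean FPKM at 22 °C and 4 °C of 354 and 469 for Agpat2 and of 431 and 309 for Dgat2. Glycerol kinase (Gk), an X-linked gene, was not tested because each 22 °C library lists it, like every X gene, at 0. With X, Y and mitochondrial genes kept, Gk was among the 8 list genes past threshold, a call that rests on those listed values of 0.

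The list named cytosolic NADH held glycolytic and lactate enzymes, and its name does not mean that each of them makes or uses NADH. Gapdh was among the 9 genes listed but has no value in these data. The list had 7 of 8 tested genes higher in both cold libraries and a median log2 fold change of 1.31, with 0 past threshold. Its most abundant genes were the aldolase Aldoa, at 544 and 732 FPKM at 22 °C and 2227 and 2468 FPKM at 4 °C (limma adjusted p = 0.0632), and the pyruvate kinase Pkm, with means of 359 and 783 FPKM (limma adjusted p = 0.109). Ldhb, Hk2, Pfkl, Aldoa and Tpi1 passed the threshold with median centring or with library type as a covariate. With robust variances they and Pkm passed. Over all genes those fits called 706, 859 and 656, against 252. With the muscle score as a covariate 0 passed. Of 14 genes of glutamate and aspartate metabolism, 5 were higher and 2 lower in both cold libraries (median 0.17). Glutamine synthetase (Glul) had means of 459 and 931 FPKM, and the glutamine transporter Slc1a5 had means of 112 and 92.5 FPKM. Of 11 genes of malate, oxaloacetate and pyruvate, 4 were higher and 1 lower (median 0.25). The most abundant there were Pck1, which makes phosphoenolpyruvate from oxaloacetate, with means of 1071 and 950.2 FPKM, and the pyruvate carrier subunit Mpc1, with means of 374 and 601 FPKM.

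On HFD, 0 of 38 tested genes of the 4 lists passed the threshold by limma, and 3 had an unadjusted p under 0.05, against 14.4% of all genes. In the order glycerol 3-phosphate use, cytosolic NADH, glutamate and aspartate, and malate, the lists held 1, 1, 5 and 2 genes higher and 0, 1, 1 and 3 genes lower in both HFD libraries, out of 6, 8, 13 and 11 tested and beside 39.9% and 5.80% of all genes. Slc1a5 stood at 29.4 and 24.8 FPKM on CD and at 86.1 and 85.8 FPKM on HFD (log2 fold change 1.63, SE 0.43, limma adjusted p = 0.180). Both HFD libraries were more than 2-fold above both CD libraries, without passing the threshold in the main fit. Slc1a5 passed with library type as a covariate, as did Me1 and Slc25a10. It alone of the lists passed with that covariate over all 8 libraries. Over all genes those fits called 744 and 439, against 12.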

How the data were processed

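The authors mapped paired-end reads of rRNA-depleted directional libraries to mouse GRCm38 with TopHat2 (2.0.10 in the submitters' processing notes) and obtained Ensembl gene values with Cufflinks (2.2.1 there). The deposited values are FPKM, 1 per gene and library, without pooling. Total counts are not given, so precision was read from the fragment steps described above and covers counting error only. The authors' DESeq2 counts were not used here.

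Log2(FPKM + 1) was tested with limma 3.58.1 in R 4.3.3 (intensity trend, no covariate, 2 libraries against 2). Autosomal genes with at least 0.1 FPKM in 2 of 4 libraries entered, and p-values were two-sided and Benjamini-Hochberg adjusted over all of them. All 9 genes passed this filter in both comparisons. X, Y and mitochondrial genes were left out, because 3 libraries list every X gene and all but at most 1 mitochondrial gene at 0. The code was tested on simulated data. Gene positions matched GENCODE M21. Members, lists, markers and alternatives were chosen with earlier results of these data known. Named genes were the 9 members, their paralogs, list genes past threshold or among the 2 highest of their list, and the 5 closest to Got1. Other genes were named after their values were seen.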

Additional observations from a re-analysis of the deposited data

How the results depend on the processing

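Pairing by replicate number was not possible, because the 22 °C and 4 °C groups share no number and CD and HFD share only number 6. Library type, read from the data, splits each group and entered as a covariate. In the cold, each of the 8 genes tested except Slc25a13 kept its sign in 22 of 22 alternatives. Got1, chosen for its rise, ranged from 2.79 to 4.22. The count of shuttle genes past threshold in the cold, 0 as reported, was 1 (Slc25a12) with a filter of 1 FPKM, quantile normalization, rescaling to the autosomal sum, to that sum without mitochondrial, rRNA genes and Ucp1 or to the autosomal mRNA sum, X, Y and mitochondrial genes kept, or all 8 libraries in 1 fit. It was 2 with median centring (Got2, Slc25a12) or library type as a covariate (Mdh1, Slc25a12), 4 with library type over all 8 libraries (those 3 and Gpd2) or robust variances (those 3 and Gpd1), and 0 to 2 leaving out 1 library at a time. Calls over all genes, 252 as reported, moved too. They were 142 with a pseudocount of 0.01 and 0 with no filter, no trend or the muscle score. They rose to 439 to 920 in the alternatives with 1 shuttle gene, 706 with median centring, 859 and 869 with library type and 656 with robust variances. On HFD it was 0 in every alternative, while calls over all genes, 12 as reported, ran from 0 to 744 (744 with library type, 727 without CD replicate 6). Neighbour genes past threshold in the cold, 1 as reported, numbered 0 with a pseudocount of 0.01, no filter, no trend or the muscle score, 2 with a pseudocount of 0.1, quantile normalization or either autosomal rescaling (Lpin1 not among them in the last 3), 3 with the mRNA sum, 4 with all 8 libraries, 5 with the filter of 1 FPKM, 8 with X, Y and mitochondrial genes kept, 9 with median centring, 10 with robust variances, 11 with library type, 12 with it over all 8 libraries, and 0 to 7 leaving out 1 library. On HFD they numbered 3 with library type, 1 with it over all 8 libraries, and 0 to 1 leaving out 1 library. The shuttle genes lower in both cold libraries, 0 as reported, became 1 (Slc25a13) with median centring and the 3 rescalings. Of all genes, 20.6% were lower as reported and 33.3% with median centring. That share was 27.9% with the autosomal sum, 26.5% without mitochondrial, rRNA genes and Ucp1, and 45.4% with the mRNA sum. Shuttle genes lower in both HFD libraries, 3 as reported, became 6 with quantile normalization or median centring and 5 with the mRNA sum. In that order, 5.80% of all genes were lower as reported, and then 20.1%, 34.5% and 10.8%. Shuttle genes higher in both HFD libraries, 1 as reported, became 0 with median centring. Of all genes, 39.9% were higher as reported and 12.6% with median centring. Signs of log2 fold changes changed in the cold for Slc25a13 (0.0012 with quantile normalization, 0.16 with the muscle score, and -0.022 to 0.014 leaving out 1 library, above 0 without 4 °C replicate 11, and 0.010 within satellite-low libraries). On HFD they changed for Got1 (0.89 with the muscle score, and -0.65 to 0.38 leaving out 1 library, above 0 without CD replicate 8 or HFD replicate 6), Got2 (0.058 with the muscle score), Slc25a12 (0.31 with it), Mdh2 (-0.045 with median centring, and -0.027 to 0.57 leaving out 1 library, below 0 without CD replicate 6, and -0.034 within satellite-high libraries), Slc25a11 (-0.39 to 0.29, above 0 without CD replicate 6 or HFD replicate 2, and 0.12 within satellite-high libraries) and Gpd1 (-0.95 to 0.086, above 0 without CD replicate 6). The causes were not tested. Library type as a covariate brought Got2 (limma adjusted p = 0.0212) and Slc25a13 (limma adjusted p = 0.0340) under 0.05 on HFD, both below 2-fold on the log2(FPKM + 1) scale. With that covariate over all 8 libraries, Slc25a13 was again under 0.05 (limma adjusted p = 0.0488) and Got2 was not (0.113). Slc25a13 had no value under the filter of 1 FPKM. Leaving out 1 library leaves a lone one that is assumed to vary like the other group. The mRNA sum, the counts of non-overlapping genes by scaling and the alternatives for neighbour genes were chosen after seeing the data.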
